A study of Drosophila melanogaster with 12 samples.

Results

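RNA that came down with a GFP-tagged Bam protein from *Drosophila* ovaries was compared with RNA that came down with GFP alone. The comparison rested on all 6 RNA immunoprecipitation (RIP) libraries of a series of 12 samples, chosen by the strain in their labels. In 3 of them the ovaries carried Bam-fTRG-GFP, a fosmid transgene that holds *bam* with its own regulatory sequence and a GFP tag. In the other 3, the control, *bam*-Gal4 drove GFP alone from a *UASp* transgene, so that GFP came from the germ cells in which the *bam* promoter is active. The other samples of the series are sorted germ cells and were not used here. Pairs of whole ovaries were lysed together for each genotype, so that a lysate could hold germline and somatic cells of all stages. GFP-trap beads carry an antibody fragment against GFP and were washed at high salt before the RNA was isolated and enriched for mRNA. The endogenous *bam* alleles of both genotypes are not given in the labels, and nothing says that the 3 libraries of a group came from separate dissections, so that p-values measure the spread between these libraries only. No RNA of the lysates before the pull-down was analysed here, so that binding to Bam-GFP cannot be told apart from how much of a transcript a lysate held. For the same reason, fewer cells of a type and less RNA per cell cannot be told apart.

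Bag of marbles (Bam) is the factor that turns the daughter of a germline stem cell into a differentiating cystoblast. It has no recognized RNA-binding domain and acts with partners, among them Bgcn, Mei-P26, Sxl and Tut, to repress the translation of stem cell mRNAs such as *nos*. It also contacts the deadenylase complex CCR4-NOT through the Rcd-1 subunit (CAF40). Bam protein is known from a short window of germ cell cysts at the tip of the ovariole. The eggshell, in contrast, is secreted much later by the somatic follicle cells, which surround the growing oocyte and lay down first the vitelline membrane and then the chorion.

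The libraries held 7697440 to 12704088 counts on genes, and the test covered the 10971 genes that had 1 count or more in some library. Reads that aligned to several places made up 79.3% to 89.6% of the lines that the counting program reported and entered no gene count. Levels are given as CPM, gene counts scaled to a common library size with TMM factors and not to gene length. Between libraries of a group, log2 CPM of 6335 well-counted genes correlated with Pearson's r of 0.894 to 0.934 for Bam-GFP and 0.900 to 0.950 for GFP, and between groups with 0.838 to 0.944. These are correlations across genes, which are not independent replicates, and the ranges within and between groups overlapped. The library Bam-GFP 1 lay farthest from the others on the first principal component, which held 41.7% of the variance. Markers of the ovary were present in all libraries, with 263 to 412 CPM for the germ cell helicase *vas*. The 7 detected of 19 testis markers summed to 5.99 to 16.8 CPM and the 4 detected of 16 gut markers to at most 9.20 CPM in a library.

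A transcript was called enriched or depleted where edgeR's quasi-likelihood test gave an adjusted p under 0.05 for Bam-GFP over GFP. A log2 fold change above 0 is higher with Bam-GFP throughout. By this rule 189 transcripts were enriched (1.72% of those tested) and 52 were depleted (0.474%). The median log2 fold change was 1.58 over the enriched, −2.17 over the depleted and −0.05 over all genes tested. In 155 of the enriched transcripts all Bam-GFP libraries lay above all GFP libraries, which held for 6.4% of all genes, and 166 reached 10 counts throughout the 6 libraries. In 43 of the depleted transcripts all Bam-GFP libraries lay below all GFP libraries, which held for 7.24% of all genes, and 37 reached 10 counts throughout. Enriched transcripts made up 78.4% of the calls, and 55.4% when libraries were scaled by their size alone (108 enriched, 87 depleted). The numbers also moved with single replicates. Without replicate 1, 112 were enriched and 38 depleted, without replicate 2 these were 55 and 18, and without replicate 3 they were 121 and 44.

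**Figure D1:**
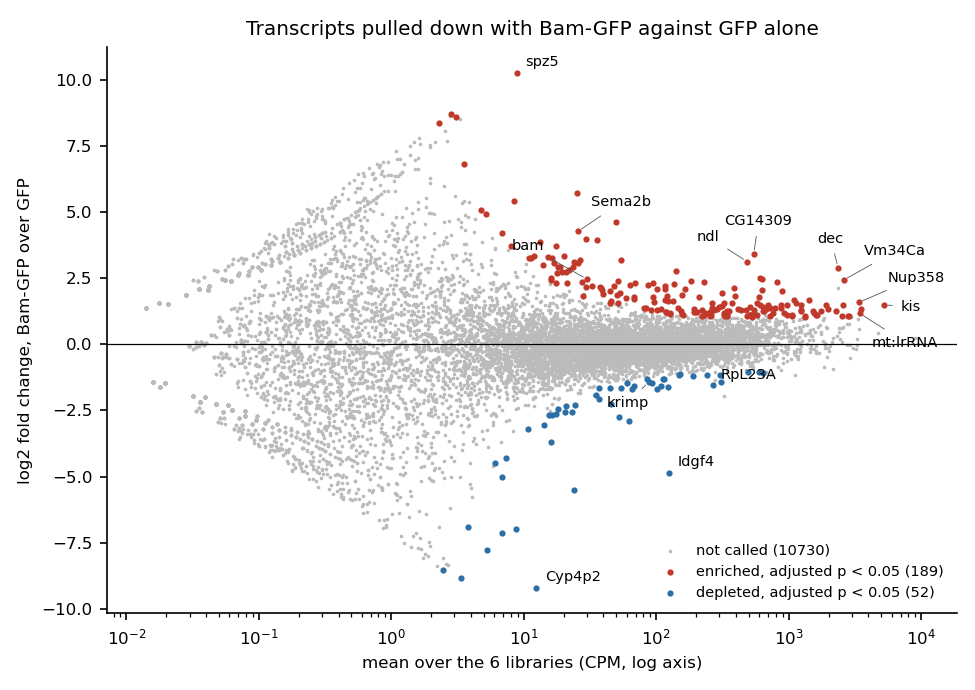
Each point is 1 of the 10971 transcripts tested, with its mean over the 6 libraries in CPM on a log axis against its log2 fold change of Bam-GFP over GFP. The 189 enriched transcripts (red) reach into the most counted genes such as *kis* and *dec*, and the 52 depleted ones (blue) include *Idgf4* at −4.85.

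The largest increase among called transcripts with at least 10 counts per library and separate groups was that of *Sema2b*. *Sema2b*, a secreted guidance ligand of the semaphorin family, had 47.9, 40.1 and 52.9 CPM with Bam-GFP, against 1.137, 11.3 and 1.07 CPM with GFP. Its libraries did not overlap between the groups, and GFP 2 lay closest to Bam-GFP. The log2 fold change of *Sema2b* was 4.28 (SE 0.70, edgeR adjusted p = 4.19e-07). *Pde9*, which codes for a cyclic nucleotide phosphodiesterase, had 55.4, 55.6 and 87.8 CPM with Bam-GFP, against 6.06, 1.29 and 7.71 CPM with GFP. This was a log2 fold change of 3.95 (SE 0.57, edgeR adjusted p = 3.47e-09) with wide distance between the groups. *CG14309*, a gene without a given name, was far more counted, with 1121, 749 and 1106 CPM against 89.6, 144 and 59.4 CPM. Its log2 fold change of 3.42 (SE 0.35, edgeR adjusted p = 1.67e-18) had the smallest p of all genes tested. *Ten-a*, which codes for a teneurin, had 120.5, 46.1 and 115 CPM against 9.09, 0.352 and 6.21 CPM (log2 fold change 4.63, SE 0.52, edgeR adjusted p = 3.76e-15). It had fewer than 10 counts in GFP 2 and was picked after its values were seen. *Sema2b*, *Pde9* and *CG14309* were called under each of the 9 alternatives.

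Further transcripts among the 12 largest increases were *CG10654* (log2 fold change 3.99), *ndl* (3.14), *CG13113* (3.12), *ec* (3.09), *CG32645* (3.08), *tnc* (2.95), *Cad88C* (2.91) and *dec* (2.91). *ec* codes for a protein of the ubiquitin-specific protease family, *tnc* for the extracellular matrix protein Tenectin and *Cad88C* for a cadherin. In *CG10654*, the Bam-GFP libraries had 94.1, 21.9 and 52.7 CPM against at most 4.39 CPM in a GFP library. In *ec*, GFP 1 with 13.5 CPM came close to Bam-GFP 1 with 19.3 CPM, whereas the other GFP libraries had 1.17 and 2.03 CPM. Leaving out a replicate ended several of these calls. Without replicate 2, the edgeR adjusted p was 0.0709 for *CG13113*, 0.429 for *ec*, 0.253 for *CG32645* and 0.0619 for *Cad88C*. Without replicate 3 it was 0.525 for *ec*, 0.188 for *CG32645*, 0.0756 for *tnc* and 0.371 for *Cad88C*, and without replicate 1 it was 0.0766 for *tnc*.

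**Figure D2:**
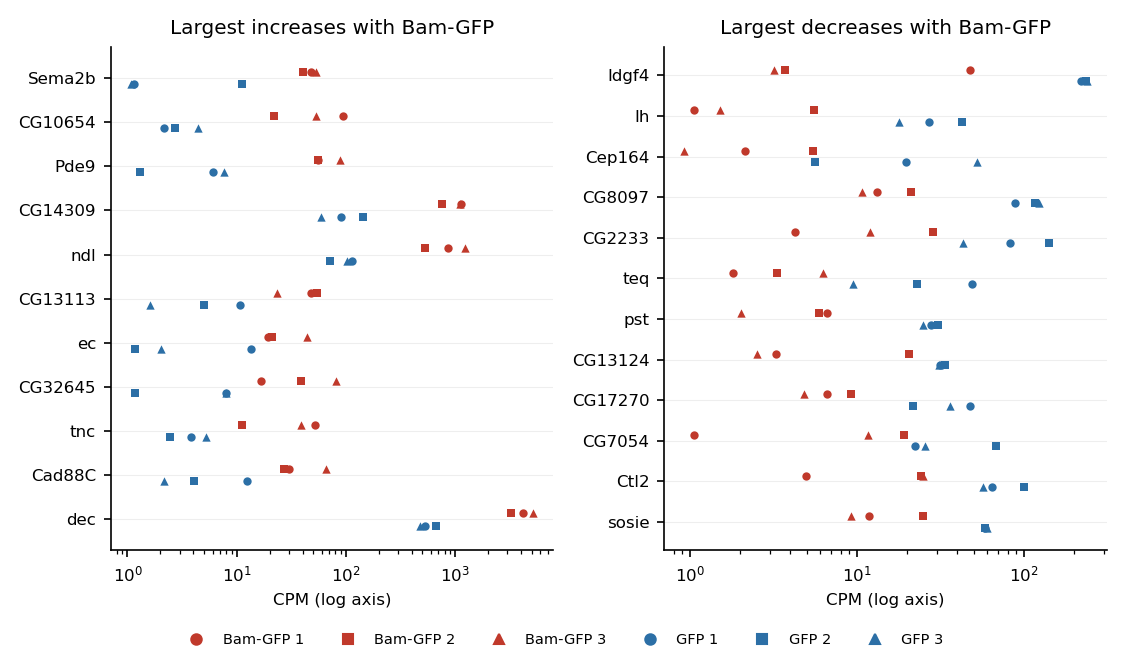
CPM on a log axis in each Bam-GFP library (red) and GFP library (blue) for transcripts with the largest increases and the 12 with the largest decreases, among called transcripts with at least 10 counts in every library and groups that do not overlap. Marker shapes stand for the replicate number. In *Idgf4* the GFP libraries lie together between 219 and 238 CPM, while Bam-GFP 1 stands above the other Bam-GFP libraries at 47.8 CPM.

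Among the called transcripts with at least 10 counts per library and separate groups, those with the 8 smallest p-values included *dec*, *ndl*, *Vml* and *Cad74A*, all known from follicle cells. *dec* (FBgn0000427, chromosome X from 7867161 to 7873222 in the Release 6 assembly), which codes for the defective chorion proteins, had 4147, 3211 and 5180.3 CPM with Bam-GFP, against 526, 660.3 and 471 CPM with GFP. Every Bam-GFP library held more than 4 times the CPM of any GFP library, and the log2 fold change was 2.91 (SE 0.34, edgeR adjusted p = 3.60e-14). *ndl* (FBgn0002926, chromosome 3L from 6593938 to 6603366), which codes for the follicle cell protease Nudel of the dorsoventral pathway, had 858, 533 and 1235 CPM against 114, 71.4 and 102 CPM. Its log2 fold change was 3.14 (SE 0.34, edgeR adjusted p = 1.34e-16). *Vml*, a vitelline membrane-like gene, had 575, 1471 and 1059 CPM against 166, 269.9 and 104 CPM, a log2 fold change of 2.53 (SE 0.33). *Cad74A*, a cadherin of the follicle epithelium, had 302, 268 and 592 CPM against 69.9, 60.6 and 81.3 CPM, a log2 fold change of 2.37 (SE 0.33). In each of these the groups did not overlap, and each was called under all 9 alternatives.

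The remaining transcripts among the 8 smallest p-values of the enriched were *CG9747*, *mgl* and *btsz*. *mgl*, which codes for the lipoprotein receptor Megalin, had 1028, 544 and 1671 CPM with Bam-GFP, against 245, 109 and 200.01 CPM with GFP. The log2 fold change of *mgl* was 2.48 (SE 0.33, edgeR adjusted p = 8.23e-11). *btsz*, which codes for the synaptotagmin-like protein Bitesize of epithelial cells, had 319, 206 and 408 CPM against 68.5, 49.6 and 53.8 CPM, a log2 fold change of 2.399 (SE 0.34). *CG9747* varied least, with 235, 238 and 264 CPM against 32.5, 45.0 and 31.4 CPM. Its log2 fold change was 2.78 (SE 0.36, edgeR adjusted p = 2.17e-11).

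Of 24 markers of follicle cells and the eggshell, all of which were tested, 18 were enriched and none was depleted, against 1.72% and 0.474% of all genes. The median log2 fold change of the list was 1.34, against −0.05 over all genes. It stayed between 1.12 and 1.62 under the alternatives, and the medians of the 3 numbered pairs of libraries were 1.36, 1.53 and 1.68. Summed over the list, the Bam-GFP libraries held 21508, 33818 and 16234 CPM and the GFP libraries 5880, 10954 and 5871 CPM. The sums did not overlap, and both libraries numbered 2 were the highest of their group. In 13 of the 24 transcripts all Bam-GFP libraries lay above all GFP libraries, which held for 6.4% of all genes.

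The vitelline membrane genes that rose did so by 2.02 to 3.02 on the log2 scale. *Vm34Ca* (FBgn0003983, chromosome 2L) had 4402, 7352 and 1578 CPM with Bam-GFP, against 440.3, 1145 and 655 CPM with GFP, so that Bam-GFP 3 was the lowest of its group but still above GFP 2. Its log2 fold change was 2.43 (SE 0.34, edgeR adjusted p = 9.07e-10). *Vm26Aa* had 1242, 2185 and 881 CPM against 306, 572 and 204 CPM (log2 fold change 2.02, SE 0.32). *Vm26Ab* had a log2 fold change of 2.07 (SE 0.33), and *psd* (palisade), which codes for another vitelline membrane protein, one of 2.28 (SE 0.35). *Vm26Ac* had only 2.94, 5.63 and 0.535 CPM with GFP, where the log2 fold change was 3.02 with a wide error (SE 0.80), and its edgeR adjusted p was 0.761 without replicate 2 and 0.243 without replicate 3. *Vm32E* had 6.69, 74.9 and 24.2 CPM against 8.53, 13.5 and 4.17 CPM and was not called (edgeR adjusted p = 0.271).

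Chorion genes, which are amplified and transcribed at the end of oogenesis, were enriched in 8 of 9 cases, and their levels differed widely between the libraries of a group. *Cp15* had 1854, 5268 and 573 CPM with Bam-GFP, against 777, 1788 and 297 CPM with GFP. The groups overlapped. With the replicate number as a block the log2 fold change was 1.25 (SE 0.32, edgeR adjusted p = 0.00722), and without the block *Cp15* was not called (1.43, SE 0.69, edgeR adjusted p = 0.420). *Cp36* likewise had 151, 576 and 233 CPM against 108, 162 and 27.3 CPM (log2 fold change 1.80, SE 0.34), and an edgeR adjusted p of 0.0511 without the block. *Cp16*, *Cp18*, *Cp19*, *Cp7Fa*, *Cp7Fb* and *Cp7Fc* were also enriched, with log2 fold changes between 1.25 for *Cp7Fc* and 1.88 for *Cp16*. Of the 8, *Cp16* alone was called under all 9 alternatives. Without replicate 2 the others had edgeR adjusted p-values from 0.0709 for *Cp19* to 0.603 for *Cp7Fc*. *Cp38*, with 4031, 5901 and 2007 CPM against 1065, 2806 and 1776 CPM, missed the threshold (log2 fold change 1.06, SE 0.33, edgeR adjusted p = 0.0525). The eggshell gene *Femcoat* had 137, 159 and 132 CPM against 31.7, 71.3 and 31.6 CPM, a log2 fold change of 1.78 (SE 0.38).

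Yolk protein genes, which are transcribed in follicle cells and in the fat body, held 2 calls among 3 members. *Yp2* had 1403, 1578 and 1363 CPM with Bam-GFP, against 571, 884 and 594 CPM with GFP (log2 fold change 1.11, SE 0.32, edgeR adjusted p = 0.0272). *Yp3* was enriched to the same extent (1.11, SE 0.33), whereas *Yp1* had 481, 767 and 502 CPM against 523, 487 and 646 CPM and a log2 fold change of 0.06 (SE 0.31). The difference between *Yp1* and the others was not tested. Among the markers of earlier or particular follicle cells, the transcription factor gene *tj* was enriched (log2 fold change 1.16, SE 0.35). Without replicate 2 the edgeR adjusted p was 0.413 for *Yp2*, 0.766 for *Yp3* and 0.405 for *tj*, and without replicate 3 it was 0.123, 0.504 and 0.386, in the same order. Without replicate 1 it was 0.164 for *Yp2* and 0.0629 for *tj*. The adhesion gene *Fas3* (−0.51, SE 0.45), the border cell factor gene *slbo* (−0.04, SE 0.92) and the patterning gene *mirr* (1.18, SE 0.70) were not called. The number of enriched markers rested on single libraries. It was 7 without replicate 2. Without the block it was 16 of 24 with all libraries, 16 without Bam-GFP 1, 11 without Bam-GFP 2, 7 without GFP 1 and 8 without GFP 3.

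**Figure D3:**
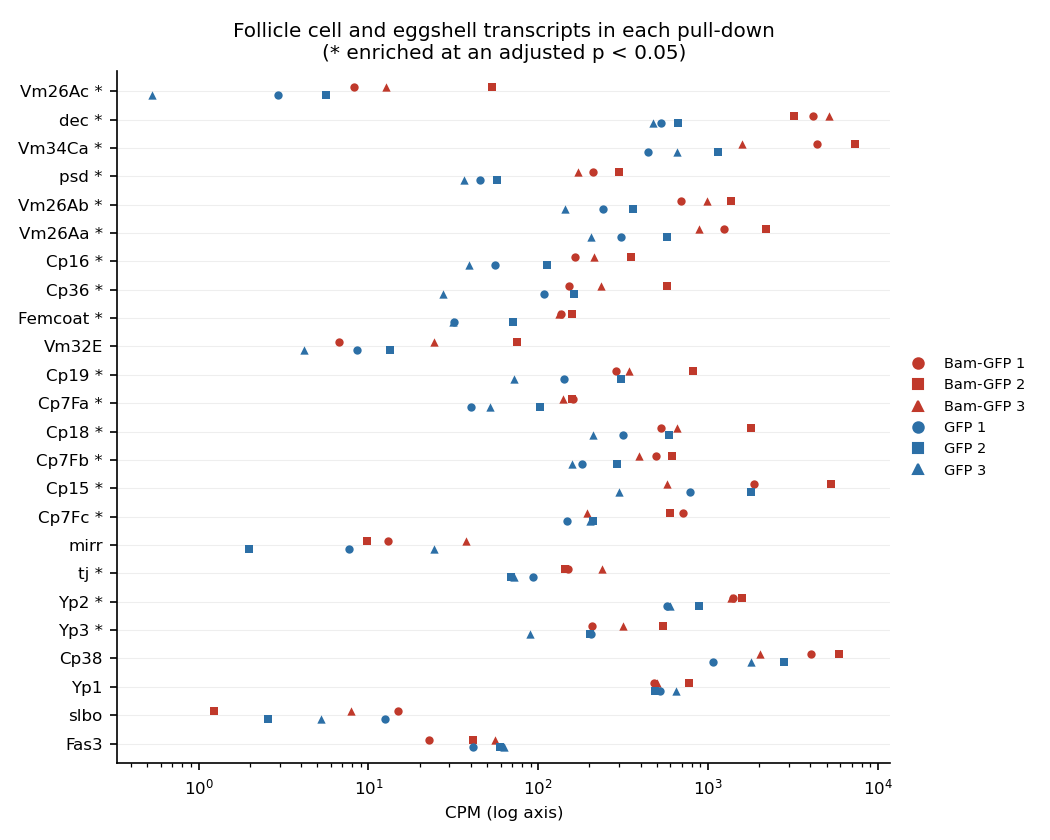
CPM on a log axis of the 24 follicle cell and eggshell markers in each Bam-GFP library (red) and GFP library (blue), ordered by log2 fold change, with shapes for the replicate number and a star for each of the 18 enriched. Apart from *Vm32E*, which overlaps, the vitelline membrane genes show separate groups, as does *dec*. The chorion genes *Cp15* and *Cp18* overlap, with both libraries numbered 2 high, and *Fas3*, *slbo* and *Yp1* do not separate.

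Of 26 germ cell markers, *osk* and *tud* were enriched, *krimp* and *zpg* were depleted and the other 22 were not called, against 1.72% enriched and 0.474% depleted of all genes. Their median log2 fold change was −0.28 and stayed below 0 under all alternatives, between −0.51 and −0.20. Their summed level ranged from 7662 to 11131 CPM with Bam-GFP and from 6830 to 8346 CPM with GFP, so that the groups overlapped. *zpg*, which codes for the germline gap junction protein Zero population growth, had 50.4, 187 and 71.2 CPM against 174, 199 and 214 CPM (log2 fold change −1.17, SE 0.35, edgeR adjusted p = 0.0387). None of 17 muscle sheath markers was called. Their median log2 fold change was −0.64, and they summed to 202 to 305 CPM in the Bam-GFP libraries and 235 to 701 CPM in the GFP libraries. Of 12 detected markers of hemocytes and fat body, the collagen gene *vkg* was enriched (log2 fold change 1.23, SE 0.32) and the lipophorin gene *apolpp* was depleted (−1.17, SE 0.32), while the hemocyte gene *Hml* stayed under 8 CPM in each library. Each call was 8.33% of these 12, against 1.72% enriched and 0.474% depleted of all genes. The median log2 fold change of the 12 was 0.97, between −0.07 and 1.24 under the alternatives. None of 11 detected markers of escort and niche cells was called, but their median was 0.69 and lay above 0 under all alternatives, between 0.47 and 1.01. Their summed level was 398 to 1304 CPM in the Bam-GFP libraries and 235 to 807 CPM in the GFP libraries. Of these markers *hh*, *Wnt4*, *Wnt6* and *upd1* stayed under 3 CPM in each library. The part of any of these cell types in the enriched transcripts was not tested.

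The mRNAs of Bam's partners and of transcripts known as its targets were mostly not called. Of 12 such genes, only *bam* itself was enriched (8.33%, against 1.72% of all genes). *bam* (FBgn0000158, chromosome 3R from 25243039 to 25245109) had 51.5, 50.1 and 46.8 CPM with Bam-GFP, against 16.7, 11.7 and 3.32 CPM with GFP, which was a log2 fold change of 2.47 (SE 0.57, edgeR adjusted p = 0.00188). The transgene adds *bam* copies to 1 group only, so that binding and copy number cannot be told apart. The call of *bam* was lost without replicate 2 (edgeR adjusted p = 0.0689) and without replicate 3 (0.128). *mei-P26*, the TRIM-NHL partner of Bam, had 1167, 663 and 823 CPM against 622, 432 and 737 CPM, with overlapping groups (log2 fold change 0.56, SE 0.31). *nos*, the translational repressor that keeps stem cells undifferentiated, had 295, 307 and 161 CPM against 273, 410.3 and 291 CPM (log2 fold change −0.39, SE 0.32). *shg*, which codes for E-cadherin, had 458, 359.7 and 602 CPM against 299, 240.2 and 427 CPM (log2 fold change 0.57, SE 0.31).

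Most other partners and targets had negative values. *Sxl*, the sex determination gene whose product joins Bam in repressing *nos*, had 125, 185 and 88.6 CPM with Bam-GFP, against 232, 238 and 313 CPM with GFP. Every Bam-GFP library was below every GFP library, but the log2 fold change of −1.02 (SE 0.32) missed the threshold (edgeR adjusted p = 0.0637). It passed when libraries were scaled by size alone (edgeR adjusted p = 0.0160). *eIF4A*, the initiation factor that Bam contacts, had a log2 fold change of −0.90 (SE 0.31, edgeR adjusted p = 0.122), and also passed with library size alone (edgeR adjusted p = 0.0148). *tut*, which codes for a partner known from the testis, had 0, 5 and 1 counts with Bam-GFP and 87, 43 and 29 counts with GFP. The edgeR adjusted p of *tut* was 0.190, and 0.0120 with DESeq2. The values were −0.25 (SE 0.31) for *otu*, −0.07 (SE 0.31) for *CycA*, −0.18 (SE 0.41) for the signalosome gene *CSN4* and −0.22 (SE 0.33) for the deadenylase subunit *Rcd-1*, each with overlapping groups. *bgcn* had 2 counts in Bam-GFP 2 and none elsewhere, so that nothing could be detected for it at this depth. The median of the 12 genes was −0.20, and −0.06 to −0.42 over the alternatives.

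The constructs can add sequence of their own to a pull-down. *fs(1)K10*, whose 3' sequence is part of *UASp* vectors, had 190.1, 119 and 75.6 CPM with Bam-GFP, against 119, 97.3 and 151 CPM with GFP, and *w*, the usual eye color marker, had at most 25 counts in any library. Neither was called. A fosmid clone carries neighbors of the tagged gene, and its ends are not given in the sources used here. Within 40 kb of *bam*, 20 other genes were tested and 11 of these reached 10 counts in each library. The only other enriched transcript was that of *Nup358*, which lies 4.24 kb from *bam* and codes for the large nuclear pore protein RanBP2. *Nup358* (FBgn0039302) had 5031, 3279.8 and 7083 CPM with Bam-GFP, against 1769, 1529 and 1582 CPM with GFP, a log2 fold change of 1.59 (SE 0.32, edgeR adjusted p = 0.000218). Without replicate 2 its edgeR adjusted p was 0.0746. *RpS27* and *Nup37*, which lie between *bam* and *Nup358*, had log2 fold changes of 0.34 (SE 0.31) and −0.32 (SE 0.70), and *CG11857*, on the far side of *Nup358*, had one of 0.50 (SE 0.33). Over the 20 neighbors, 11 had a positive value and the median was 0.15.

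Among the functional groups, transcripts of chromatin regulators had mostly positive values. Of 30 members, 25 had a log2 fold change above 0 and the median was 0.47, between 0.25 and 0.53 under the alternatives. The numbered pairs had medians of 0.43, 0.30 and 0.67. Only *kis* and *nej* were enriched (1.72% of all genes were), and none was depleted. These genes span 40.1 and 21.6 kb of the genome. Of all protein-coding genes that span 8 kb or more, 59.7% lay above 0 and 5.50% were enriched. The parts of gene span and of the list were not tested. *kis* (FBgn0266557, chromosome 2L from 210735 to 250823), a chromodomain remodeler of the CHD family, had 9796, 3749.8 and 9812 CPM against 3188, 1481 and 3360.5 CPM. Its log2 fold change was 1.50 (SE 0.32, edgeR adjusted p = 0.000501). *nej*, which codes for the acetyltransferase CBP, had 2845, 1212 and 2432 CPM against 953, 513 and 1207 CPM (log2 fold change 1.28, SE 0.32). Leaving out replicate 2 gave an edgeR adjusted p of 0.200 for *kis* and 0.411 for *nej*, and leaving out replicate 1 gave 0.0830 for *nej*.

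Transcripts of cytoskeleton, centrosome and motor proteins had a median of 0.28 over 29 members, which fell to 0.06 with library size alone. Of these, 3 were enriched, against 1.72% of all genes. All 3 span 8 kb or more, and 5.50% of the protein-coding genes of that span were enriched. The part of gene span was not tested. *kst*, which codes for the apical spectrin of epithelia, had 892, 498 and 1227 CPM with Bam-GFP, against 370.3, 195 and 293 CPM with GFP (log2 fold change 1.56, SE 0.32, edgeR adjusted p = 0.000239). *Dhc64C*, the dynein heavy chain gene, had 1700.0, 1076 and 2787 CPM against 731, 562 and 546 CPM (log2 fold change 1.50, SE 0.32), and *mud*, a spindle orientation gene, had a log2 fold change of 1.20 (SE 0.32). In all of these the groups did not overlap. Without replicate 2 the edgeR adjusted p was 0.0836 for *kst*, 0.0740 for *Dhc64C* and 0.439 for *mud*. Without replicate 3 it was 0.113 for *Dhc64C* and 0.0638 for *mud*, and without replicate 1 it was 0.0587 for *mud*.

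In the proteasome, the base subunit genes *Rpn2* (log2 fold change 1.29, SE 0.33) and *Rpn1* (1.13, SE 0.32) were enriched. They were 6.45% of the 31 subunits, against 1.72% of all genes, while the median of the subunits was −0.03. *Rpn2* had 2667, 814 and 1914 CPM against 644, 614 and 729 CPM. Among 49 translation factors, *eIF5B*, the subunit joining factor, was enriched with 1426, 471 and 975 CPM against 324, 314 and 349 CPM (log2 fold change 1.40, SE 0.32, edgeR adjusted p = 0.00185). Enriched members made up 2.04% of the list, near the 1.72% of all genes, and its median was −0.19. *Nup358* was the only enriched gene of 23 nuclear pore genes (4.35%, median 0.01). These calls were lost with some replicates left out, with a highest edgeR adjusted p of 0.311 for *Rpn2*, 0.592 for *Rpn1* and 0.175 for *eIF5B* over all alternatives.

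Neither decay factors nor RNA-binding proteins of the germline held a call. Of 18 deadenylation, decapping and decay genes, the scaffold gene *Not1* had the smallest p, with 5204, 2716 and 5209.9 CPM against 2762, 1371 and 2686 CPM. Its log2 fold change was 0.95 (SE 0.32, edgeR adjusted p = 0.0875), and DESeq2 gave an adjusted p of 0.0114. *pcm*, the 5' to 3' exonuclease gene, followed at −0.58 (SE 0.39). Of 24 germline RNA-binding protein genes, *Sxl* came closest to the threshold, in the direction of depletion (−1.02, SE 0.32, edgeR adjusted p = 0.0637). *rin* (rasputin), a stress granule factor, followed with 0.93 (SE 0.32, edgeR adjusted p = 0.102, and 0.0361 with DESeq2). The medians of both lists were −0.04 and 0.05. Both counts of 0 were from edgeR, and at an unadjusted p under 0.05, which 5.54% of all genes passed upward and 4.03% downward, 1 decay gene and 2 RNA-binding protein genes were higher, and none and 2 were lower.

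**Figure D4:**
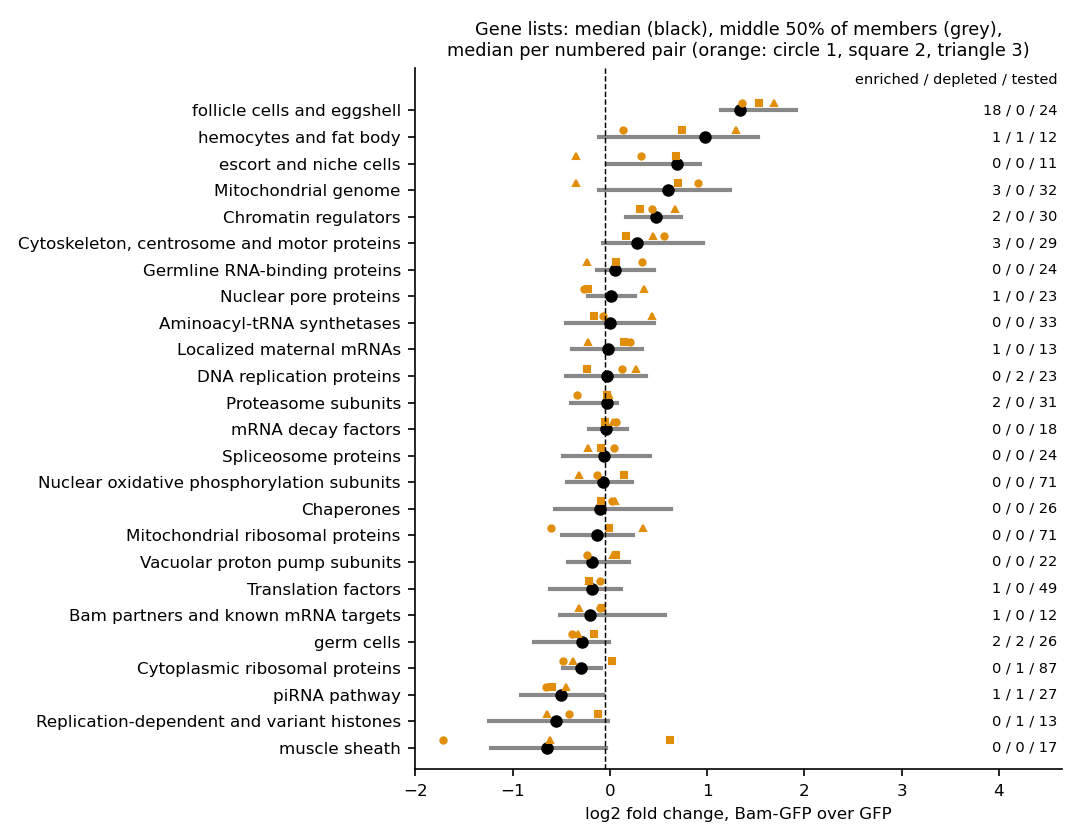
Median log2 fold change (black) of each gene list with at least 10 tested members, with the middle 50% of its members (grey) and the median in each numbered pair of libraries (orange: circle 1, square 2, triangle 3). The broken line is the median of all genes (−0.05), and the right column gives enriched, depleted and tested members. For the mitochondrial genome and for escort and niche cells, the median of pair 3 (−0.35) is the value of a gene without a count in both libraries. The follicle cell and eggshell list has the highest median, 1.34, with 18 enriched of 24 and all pairs above 1.

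Most ribosomal protein mRNAs had values below 0. Of 87 detected cytoplasmic ribosomal protein genes, 13 had a log2 fold change above 0. None had groups that did not overlap, against 6.4% of all genes with Bam-GFP higher and 7.24% with GFP higher. The median was −0.30. It ranged from −0.52 to −0.18 over the alternatives, and the pairs had medians of −0.48, 0.02 and −0.38. Their sum was 13777 to 52982 CPM in the Bam-GFP libraries and 20023 to 51785 CPM in the GFP libraries, and it was highest in both libraries numbered 2. Only *RpL23A* was depleted (1.15% of the 87, against 0.474% of all genes). It had 67.6, 335 and 71.5 CPM against 319, 593 and 215 CPM (log2 fold change −1.55, SE 0.33, edgeR adjusted p = 0.000400). Without replicate 1 its edgeR adjusted p was 0.0804, and without the block it was 0.0810. Mitochondrial ribosomal protein genes (71 tested, median −0.14), nuclear genes of oxidative phosphorylation (71, −0.07), aminoacyl-tRNA synthetases (33, 0.00), spliceosome proteins (24, −0.06), chaperones (26, −0.10) and proton pump subunits (22, −0.18) held no call by edgeR. At an unadjusted p under 0.05, which 5.54% of all genes passed upward and 4.03% downward, these 6 lists held 7 higher and 6 lower transcripts in all. With DESeq2 *ValRS-m* was enriched (adjusted p = 0.0397). The smallest p-values of these lists belonged to *mRpL54* (log2 fold change 1.75, SE 0.84), *mRpS34* (−1.75, SE 1.01), *Cyt-c-p* (−0.92, SE 0.34), *ATPsynE* (0.85, SE 0.35), *AlaRS* (0.84, SE 0.33), *Prp19* (−1.26, SE 0.45), *Sf3b3* (0.82, SE 0.35), *CCT4* (−0.74, SE 0.32), *CCT6* (−0.71, SE 0.32), *Vha55* (0.43, SE 0.31) and *VhaM9.7-b* (−0.60, SE 0.47), beside *ValRS-m* (1.79, SE 0.66).

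RNAs of the mitochondrial genome varied widely between the libraries of a group. *mt:lrRNA*, the large ribosomal RNA, had 4092, 9659.8 and 1304 CPM with Bam-GFP, against 1765, 2919 and 859.7 CPM with GFP. Bam-GFP 3 lay below GFP 1 and GFP 2, and the log2 fold change was 1.18 (SE 0.32, edgeR adjusted p = 0.0169). The enriched *mt:CoII* had 473, 732 and 46.1 CPM against 112, 166 and 52.7 CPM, and *mt:ND3* had 113, 36.0 and 1.34 CPM against 2.56, 6.92 and 0.535 CPM. Without the block, both were no longer called (edgeR adjusted p = 0.565 and 0.496). Without replicate 2, the edgeR adjusted p of *mt:lrRNA* was 0.832 and that of *mt:CoII* was 0.774, and without replicate 1 it was 0.0551 for *mt:lrRNA*, 0.346 for *mt:CoII* and 0.531 for *mt:ND3*. Of the 32 detected RNAs, 3 were enriched (9.38%, against 1.72% of all genes). The median of the fit was 0.60, or 0.78 with the genes at 0 in a group set to their bound. Pair 1 had a median of 0.90 and pair 2 one of 0.70. The −0.35 of pair 3 is the value of any RNA without a count in both libraries. It is set by library size and gives no direction. *mt:CoI* (0.21, SE 0.33) and *mt:ND1* (−0.09, SE 0.32) were not called.

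Germ plasm and small RNA genes held calls in both directions. *osk*, which organizes the germ plasm, had 3936, 1780.5 and 4058 CPM with Bam-GFP, against 1497, 924 and 1498 CPM with GFP, without overlap (log2 fold change 1.26, SE 0.32, edgeR adjusted p = 0.00689). It was the only call among 13 localized maternal mRNAs (7.69%, against 1.72% enriched of all genes, median −0.02). *tud*, which codes for the large Tudor protein of the nuage and germ plasm, had 2464, 1312 and 2833 CPM against 1052, 788 and 1130.4 CPM (log2 fold change 1.10, SE 0.32, edgeR adjusted p = 0.0322). *krimp*, another Tudor domain gene of the nuage, went the other way with 32.3, 70.6 and 44.8 CPM against 119, 142 and 117 CPM (log2 fold change −1.42, SE 0.38, edgeR adjusted p = 0.0141). Over the 27 piRNA pathway genes the median was −0.50, between −0.73 and −0.40 under the alternatives, and the pairs had −0.66, −0.59 and −0.45. In 9 of the 27 all Bam-GFP libraries lay below all GFP libraries and in 1 above, against 7.24% and 6.4% of all genes. Without replicate 2 the edgeR adjusted p was 0.304 for *osk*, 0.423 for *tud* and 0.156 for *krimp*, without replicate 1 it was 0.150 for *tud* and 0.239 for *krimp*, and without replicate 3 it was 0.0796 for *osk*, 0.201 for *tud* and 0.0507 for *krimp*.

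Of 23 detected DNA replication genes, *PCNA*, the sliding clamp gene, and *Mcm7*, a helicase subunit gene, were depleted, against 0.474% of all genes. *PCNA* had 103, 237 and 128 CPM with Bam-GFP, against 287, 349 and 347 CPM with GFP (log2 fold change −1.16, SE 0.32, edgeR adjusted p = 0.0198). *Mcm7* had 38.9, 55.4 and 52.4 CPM against 106, 129.7 and 125 CPM (log2 fold change −1.31, SE 0.38, edgeR adjusted p = 0.0342). The groups did not overlap in either gene, but the median of the list was −0.03. Each replicate left out ended both calls, with edgeR adjusted p-values of 0.249, 0.136 and 0.148 for *PCNA* and 0.207, 0.370 and 0.0986 for *Mcm7* without replicates 1, 2 and 3. Of 124 histone genes, 13 had any count, and multiply aligned reads were not counted. Among these *His4r* was depleted (log2 fold change −1.06, SE 0.32, edgeR adjusted p = 0.0477), a call that 7 of the 9 alternatives did not keep. Without replicate 2 its edgeR adjusted p was 0.322, and without replicate 3 it was 0.724.

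The transcripts with the most counts included several that were enriched. By mean CPM, which is not scaled to length, the 10 highest were *eEF1alpha1*, *tral*, *kis*, *RpL41*, *poe*, *Nup358*, *mt:lrRNA*, *CNBP*, *Not1* and *Lk6*. *eEF1alpha1*, the elongation factor gene, had a mean of 9637 ± 3123 CPM in Bam-GFP and 9436 ± 2920.0 CPM in GFP (SD, n = 3 each) and a log2 fold change of 0.01 (SE 0.32). *tral*, a gene of cytoplasmic RNA granules, had 9911 ± 3345 CPM and 8119 ± 1409.8 CPM (SD, n = 3 each) and a log2 fold change of 0.24 (SE 0.32). *poe*, which codes for a very large ubiquitin ligase of the UBR family, had 5146, 2453 and 7684 CPM against 2645, 1109.7 and 1949 CPM, where only Bam-GFP 2 overlapped with the control (log2 fold change 1.36, SE 0.32, edgeR adjusted p = 0.00297). Its edgeR adjusted p without replicate 2 was 0.296, and without replicate 3 it was 0.161. *RpL41* (0.43, SE 0.34), *CNBP* (0.57, SE 0.33) and the kinase gene *Lk6* (0.19, SE 0.33) were not called.

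Transcript lengths were not used here, and the span of a gene in the genome, introns included, was taken in their place. The median span was 11.5 kb for the 186 enriched genes with an annotation, 2.60 kb for the 52 depleted and 2.46 kb for all tested. Of 2054 protein-coding genes of 8 kb or more, 113 (5.50%) were enriched and 10 (0.487%) depleted. Of 2510 genes of 1 to 2 kb, 14 (0.558%) were enriched and 6 (0.239%) depleted. The median log2 fold change was −0.09 under 1 kb, −0.21 for 1 to 2 kb, −0.12 for 2 to 4 kb, 0.04 for 4 to 8 kb and 0.24 for 8 kb or more. With library size alone these last classes had −0.18 and 0.02. The longest class thus lay 0.45 above the class of 1 to 2 kb in the fit. In the numbered pairs these classes differed by 0.51, 0.06 and 0.44, values that give no size for the gap. In each pair, 1 of the medians was the value of a gene without a count in both libraries. That value is set by library size. Among genes that reached 10 counts throughout, the longest class had pair medians of 0.38, 0.20 and 0.15. The class of 1 to 2 kb had −0.34, −0.04 and −0.16. Spearman's rank correlation between span and log2 fold change was 0.119 across 9740 protein-coding genes and 0.224 across the 6173 with at least 10 counts in every library, genes that share the same 6 libraries. The eggshell genes are short, and without them the difference between these classes was 0.45 as well, while the enriched share under 1 kb was 0.564% in place of 1.40%. Among genes with at least 10 counts per library, 7.504% of those of 8 kb or more and 0.922% of those of 1 to 2 kb were enriched.

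**Figure D5:**
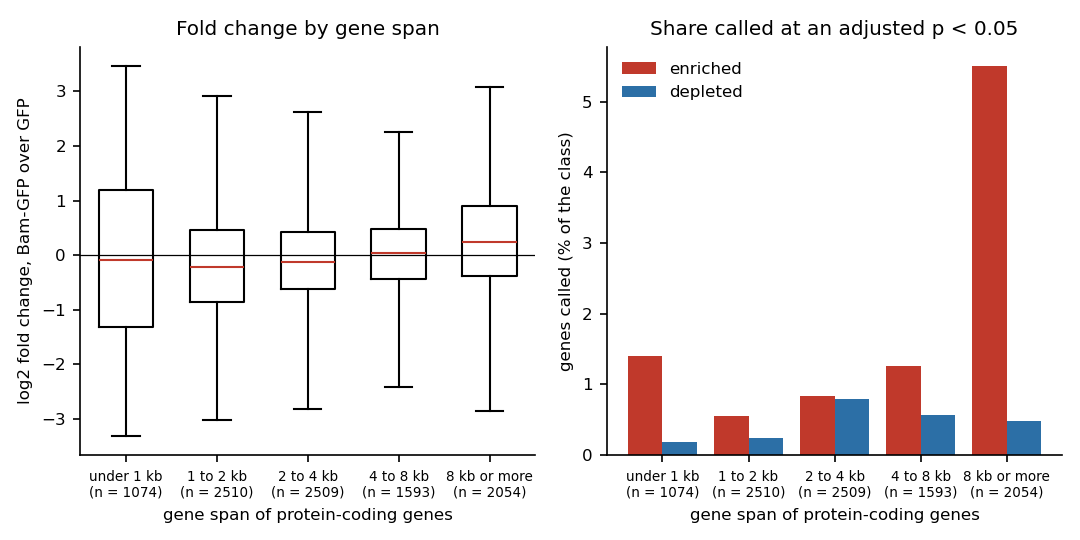
Left, log2 fold change of Bam-GFP over GFP of protein-coding genes in 5 classes of gene span in kb (box: middle 50%, line: median, whiskers: 5th to 95th percentile). Right, percent of each class that was enriched (red) or depleted (blue) at an adjusted p under 0.05, where the class of 8 kb or more has 5.50% enriched and 0.487% depleted.

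By chromosome, 54 of 1894 tested X-linked genes (2.85%) were enriched, against 1.04% to 1.82% on the long autosomal arms and 1 of 99 on chromosome 4. The medians of all tested genes were 0.09 on the X and between −0.11 and −0.02 on these arms.

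*Idgf4* (FBgn0026415, chromosome X), which codes for a secreted chitinase-like growth factor, had 47.8, 3.71 and 3.19 CPM with Bam-GFP, against 219, 237 and 238 CPM with GFP. The control libraries were nearly equal, Bam-GFP 1 stood above the other Bam-GFP libraries, and the log2 fold change was −4.85 (SE 0.54, edgeR adjusted p = 1.57e-09). It was −3.67 and not called without the block (edgeR adjusted p = 0.425). *Ih*, an ion channel gene, had 1.06, 5.57 and 1.51 CPM against 27.1, 42.8 and 17.8 CPM (log2 fold change −3.68, SE 0.76, edgeR adjusted p = 0.000260). *CG8097* had 13.3, 21.2 and 10.7 CPM against 88.9, 117 and 124 CPM (log2 fold change −2.91, SE 0.44), and *CG2233* had 4.25, 28.5 and 12.01 CPM against 83.1, 141 and 42.9 CPM (log2 fold change −2.76, SE 0.47). *Ih*, *CG8097* and *CG2233* were the only depleted transcripts called under all 9 alternatives.

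Further depleted transcripts with separate groups were *Cep164*, a centriole gene (log2 fold change −3.04, SE 0.90), *teq*, which codes for the protease Tequila (−2.69, SE 0.80), *pst* (−2.67, SE 0.72), *CG13124* (−2.56), *CG17270* (−2.34), *CG7054* (−2.31), the choline transporter-like gene *Ctl2* (−2.27) and *sosie* (−2.08). *sosie* was even in the control, with 58.2, 58.7 and 59.7 CPM, and had 11.9, 24.9 and 9.16 CPM with Bam-GFP. Each of these calls was lost with at least 1 replicate left out, with a highest edgeR adjusted p of 0.934 for *Cep164*, 0.679 for *teq*, 0.254 for *pst*, 0.339 for *CG13124*, 0.286 for *CG17270*, 0.346 for *CG7054*, 0.126 for *Ctl2* and 0.123 for *sosie*. Among more counted transcripts, *Pino* had 149, 179.5 and 178 CPM against 401, 451 and 504 CPM (log2 fold change −1.42, SE 0.32, edgeR adjusted p = 0.00121), and *Sf3b6*, a splicing factor gene, had 28.7, 85.9 and 41.3 CPM against 149, 127 and 176 CPM (log2 fold change −1.69, SE 0.38). The edgeR adjusted p of *Pino* was 0.152 without replicate 2. Without replicate 1 that of *Sf3b6* was 0.136, and without replicate 3 it was 0.0507.

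Some called transcripts were missing from a group, and these were picked after their values were seen. *Cyp4p2*, which codes for a cytochrome P450, had 203, 192 and 307 counts with GFP and 1 count in all Bam-GFP libraries together, a ratio of 726 (95% exact counting interval 130 to 28720). *Dscam4*, a cell adhesion gene, had 304 counts against 1, a ratio of 314 (56.0 to 12460), and the Hox gene *Antp* had 223 against 1, a ratio of 231 (41.0 to 9151). *Syt4*, a synaptotagmin gene, had 147, 32 and 23 counts with GFP and none with Bam-GFP, where the floor of 3 counts over the group makes it at least 69.6-fold lower. In the other direction, *spz5*, which codes for a Toll ligand of the Spätzle family, had no count with GFP and 499, 1 and 3 with Bam-GFP. It was at least 162-fold higher by the sum, which rested on Bam-GFP 1 alone. *CG34138*, *Ir76a* and *lncRNA:CR43960* were also at 0 in every GFP library, at least 63.5-fold, 40.3-fold and 58.3-fold higher with Bam-GFP. Such intervals and bounds cover counting error only. *lncRNA:CR43960* lies within the span of *Ten-a* on the X, so that their calls need not be independent. A difference in genetic background between the stocks cannot be told apart from the pull-down.

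Of the 241 called transcripts, 230 came from protein-coding genes. The rest were *mt:lrRNA* and 2 long noncoding RNAs among the enriched, 3 pseudogenes of ribosomal RNA and 2 small nucleolar RNAs among the depleted, and 3 enriched identifiers without an annotation in the reference. The latter included FBgn0265434, one of the well-counted enriched transcripts, with 2397, 723 and 1973 CPM against 531, 352 and 569 CPM (log2 fold change 1.67, SE 0.32, edgeR adjusted p = 6.49e-05). The ribosomal RNA pseudogene *28SrRNA-Psi:CR40741* had 46.2, 95.4 and 42.9 CPM against 197, 237 and 115 CPM (log2 fold change −1.61, SE 0.35). Its copies in the genome share sequence, so that its counts are uncertain. Without replicate 1 its edgeR adjusted p was 0.0731, and without replicate 2 it was 0.0620. Against 1.72% enriched and 0.474% depleted of all genes, none of the 193 antisense RNAs tested was called by edgeR. Their reads could not be told apart from those of the gene on the other strand, because the counting is not stated to use strand.

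Across all 9 alternatives, 32 transcripts stayed enriched and 3 stayed depleted. These 32 hold 7 members of the eggshell list, namely *dec*, *Vm34Ca*, *psd*, *Vm26Ab*, *Vm26Aa*, *Cp16* and *Femcoat*. They also hold *ndl*, *Vml* and *Cad74A*, the receptor genes *mgl* and *LRP1* of the lipoprotein receptor family, and the secretory pathway regulator gene *CrebA*. *LRP1* had 1155, 498 and 1178 CPM with Bam-GFP, against 303, 209 and 259.7 CPM with GFP (log2 fold change 1.79, SE 0.32). *CrebA* had 135, 76.3 and 103 CPM against 20.7, 18.9 and 24.3 CPM (log2 fold change 2.27, SE 0.43). *HERC2*, which codes for a giant ubiquitin ligase, had 553, 336 and 1034 CPM against 181, 100.2 and 127 CPM (log2 fold change 2.12, SE 0.33), and the GTPase gene *Rac2* had 324, 202 and 270.4 CPM against 56.8, 48.4 and 82.3 CPM (log2 fold change 2.10, SE 0.34). In none of these did the groups overlap. *LRP1*, *CrebA*, *HERC2* and *Rac2* were picked from the 32 after their values were seen.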

How the data were processed

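RIP-seq compared 3 Bam-GFP pull-downs with 3 GFP pull-downs, grouped by the strain and title in their labels. The 6 columns of the RIP-seq table are named only Bam or WT with a number, names that sorted germ cell samples also have as titles, so that columns were assigned to the RIP groups and not to single samples, and the numbers are those of the columns. Per the labels and the study's methods, the authors made TruSeq libraries, sequenced single-end reads, aligned them with STAR 2.4.0 and counted them per gene with HTSeq 0.11.0, with SAMtools 0.1.19 and R 3.5 also named. The deposited table holds raw counts of 17737 genes and 5 lines that name no gene, which took 80.4% to 90.2% of all lines and were left out. HTSeq can count each place of a multiply aligned read as a line, so that these need not be shares of reads. The deposited fold and p-value columns hold the authors' own paired test and were not used.

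Counts were fitted with edgeR 4.0.16 (robust quasi-likelihood test, TMM factors 0.807 to 1.13, Benjamini-Hochberg adjustment over 10971 genes) with the replicate number as a block, after the study's paired test. The SE of a log2 fold change was derived from the F statistic. DESeq2 1.42.0 and R 4.3.3 were used for fits, and figures came from matplotlib 3.10.9 under Python 3.11.15. Depth of 7697440 to 12704088 counts on genes limits the precision of transcripts under about 10 counts. The fit was tested on simulated data.

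The members, gene lists and tests were chosen with earlier results of these data known. Named genes were all of the Bam partner list and of the sequences that the constructs carry, the 12 largest changes and the 8 smallest p-values in each direction among called genes that reached 10 counts throughout and had separate groups, the 10 most counted, and from each functional list up to 4 called members or, with none called, the 2 with the smallest p. Other genes named were marker list members or neighbors of *bam*, or are said to be picked later. Coordinates and names are those of the Release 6 reference annotation, which matched 17598 of the identifiers. Of the listed names, *zip*, *Orc1* and *TrfII* matched no identifier and were left out, and neither of the 2 spermatheca markers had a count. A list's median is a description with no test. A group with at most 3 counts was treated as at the floor. The 9 alternatives were DESeq2, RLE factors, library size only, no block, each replicate left out, a minimum of 10 counts throughout and the filterByExpr rule of edgeR. Fits without the block that leave out each library were added after the data were seen, as was the span comparison without eggshell genes. Transcript lengths and sequence motifs were not analysed here. The result for 1 of the named genes is not reported here.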

Additional observations from a re-analysis of the deposited data

How the results depend on the processing

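Against 189 enriched and 52 depleted transcripts, library size only gave 108 and 87, filterByExpr 102 and 16 over 7274 genes, at least 10 counts in every library 100 and 13 over 6335 genes, DESeq2 304 and 104, and an unadjusted p under 0.05 608 and 442. RLE factors gave 200 and 47. Leaving out each replicate gave 55 to 121 enriched, 18 to 44 depleted and 7 to 14 enriched eggshell markers. The numbers did not pair the libraries, since deviations of same-numbered libraries correlated with −0.15, 0.23 and −0.05 across genes. Without the replicate block 227 were enriched and 73 depleted, of which 167 and 38 were among the main calls, with 16 enriched eggshell markers. Without the block and a single library, added after the data were seen, 98 (without GFP 1) to 330 (without Bam-GFP 2) were enriched and 32 to 150 depleted, with 7, 8 and 11 enriched eggshell markers without GFP 1, GFP 3 and Bam-GFP 2, respectively. Library size only moved the median of all genes from −0.05 to −0.26, and list medians moved with it. The difference between span classes was 0.27 to 0.57 on the log2 scale with a replicate left out.

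Among the genes named by rule, the filterByExpr rule also ended the calls of *ec*, *Idgf4*, *Cep164*, *teq*, *pst*, *CG13124*, *CG17270*, *CG7054*, *mt:lrRNA*, *mt:ND3*, *mt:CoII*, *Rpn2*, *Rpn1*, *His4r*, *PCNA*, *Mcm7*, *krimp* and *tud* (edgeR adjusted p from 0.0507 for *mt:ND3* to 0.198 for *Cep164*). Library size only ended those of *ec* (0.0616), *Rpn1* (0.113) and *tud* (0.0723), and no block, beside the calls named earlier, those of *tud* (0.0880), *CG13124* (0.0566) and *His4r* (0.136), by the same test. Of the eggshell markers, *Yp2*, *Yp3*, *tj*, *Cp7Fa*, *Cp7Fc* and *Vm26Ac* lost their calls under both filterByExpr and library size only. Their edgeR adjusted p-values were 0.0713 to 0.139 with filterByExpr and 0.0607 to 0.237 with library size only. Without the block that of *Yp2* was 0.101.

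None of the 241 called transcripts changed the sign of its log2 fold change under those of the 9 alternatives in which it was fitted. Of the genes named by rule, 8 that were not called did. With a replicate left out it ranged from −0.18 to 0.059 for *CycA*, −0.46 to 0.19 for *CSN4*, −0.65 to 0.070 for *Rcd-1*, −1.41 to 0.22 for *pcm*, −0.32 to 0.20 for *eEF1alpha1*, −0.33 to 1.04 for *RpL41*, −0.38 to 0.63 for *Lk6* and −0.36 to 0.48 for *fs(1)K10*. With library size only it was −0.21 for *eEF1alpha1* and −0.029 for *Lk6*. *fs(1)K10* had 0.021 with RLE factors and with DESeq2 and 0.062 without the block. Of the eggshell markers, *Yp1* had −0.17 with library size only and −0.24 without replicate 2, and *slbo* had 0.23 without the block and 0.41 without replicate 2. The causes were not tested.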
